A study of Mus musculus with 2 samples.

Results

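10 genes of the early nervous system were followed between pools of mDom-/- and wild-type mouse embryos: the transcription factor genes Sox1, Sox2, Sox3, Sox21, Pax3, Pax7, Olig2 and Nkx2-2, and Nes and Fabp7, which encode proteins abundant in neural stem cells. They were chosen by name, and all 10 of them had a probe annotated to that gene alone, out of 18069 genes with such a probe on the array. Together they had 11 probes, 2 for Pax3 and 1 for each of the others, and no probe shared with another gene.

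Total RNA came from whole embryo proper at embryonic day 8.5. The mDom-/- sample was a pool of 45 homozygous mutant embryos and the wild-type sample a pool of 42 litter-matched embryos, with 1 one-colour array each. mDom is the submitters' name for Ep400, the gene of the p400 chromatin-remodelling ATPase; neither the mutant allele nor the strain is stated in the labels. The comparison asked which transcripts of the embryo differ when both copies of the gene are mutated. With 1 array per pool there was no spread between replicates, so no test, no p-value and no error across embryos could be given, and the differences below describe these 2 arrays.

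At this stage the neural plate is folding into a tube whose wall is a single sheet of dividing progenitors. SoxB1 proteins (Sox1, Sox2 and Sox3) keep these cells in the progenitor state, and the SoxB2 protein Sox21 is known to oppose them. Signals from the overlying ectoderm and roof plate favour Pax3 and Pax7 dorsally, while Shh from the notochord and floor plate induces Olig2 and Nkx2-2 ventrally. Pax3 and Pax7 are also made in the dermomyotome and neural crest, and Sox2 in pluripotent epiblast and foregut endoderm, so the signal of these genes in a whole embryo need not come from neural cells.

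Intensities are given as multiples of the array's own median probe. A common floor was set at 0.541 of that median, and a gene was compared when its brightest probe was above the floor on at least 1 array. The log2 ratio is mDom-/- minus wild-type, so a negative value means a lower signal in the mDom-/- pool. Above the floor on both arrays were 6 of the 10 genes: Sox1, Sox3, Sox21, Pax3, Nes and Fabp7. The other 4, Sox2, Pax7, Olig2 and Nkx2-2, were below it on both and received no ratio.

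None of the 6 compared genes was 2-fold apart, and none was 1.5-fold apart. Among all 13136 compared genes, 1.77% were at least 2-fold apart, 0.845% higher and 0.929% lower in the mDom-/- pool, and 8.43% were at least 1.5-fold apart, so 0 of 6 does not set the members apart from the array as a whole. Their log2 ratios ran from -0.46 for Sox21 to 0.52 for Fabp7, with a median of -0.06, beside a median of -0.00386 over all compared genes. Of the 6, 4 were below 0, as were 50.6% of all compared genes. The plot of intensity by probe shows both arrays for all 11 probes.

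**Figure D1:**
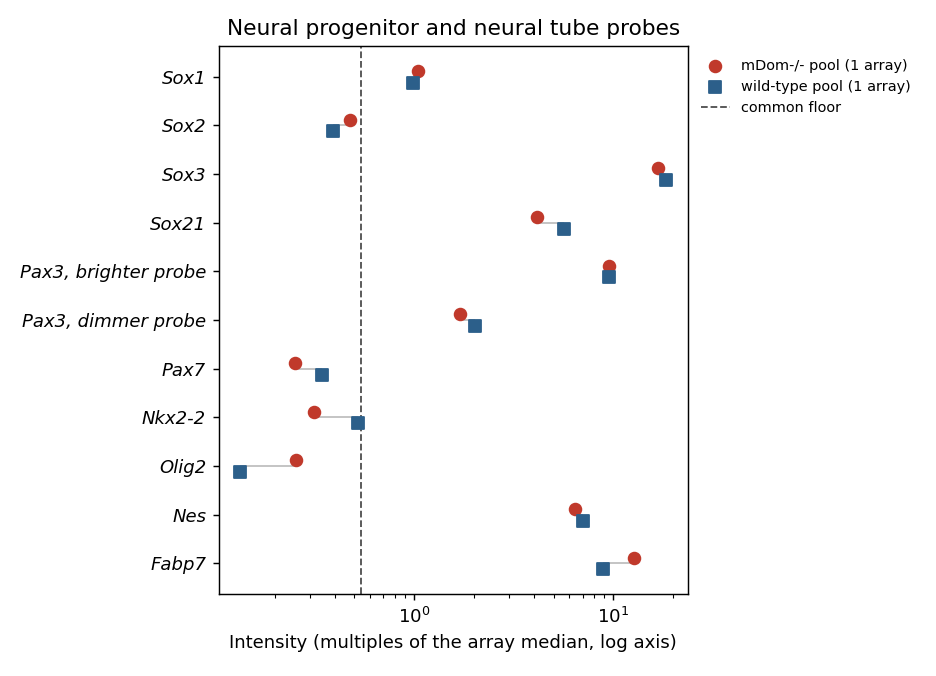
Intensity of each probe of the 10 genes on the mDom-/- array (circles) and the wild-type array (squares), in multiples of the array median on a log axis, with the common floor of 0.541 as a dashed line. Fabp7 lies to the right on the mDom-/- array and Sox21 to the right on the wild-type array, while the probes of Sox2, Pax7, Nkx2-2 and Olig2 lie left of the floor on both.

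Windows upstream of the start site are shown for 3 members: Fabp7, with the highest ratio, Sox21, with the lowest, and Nes, whose ratio was near 0. Each is the 250 bases before the start, 5′ to 3′ on the gene's strand, from RefSeq on GRCm38.p6: chr10:57784673-57784922 on the plus strand for Fabp7, chr14:118237031-118237280 on the minus strand for Sox21, and chr3:87970843-87971092 on the plus strand for Nes. Capitals mark ACAAT or its reverse complement ATTGT, the core that Sox proteins recognise.
Fabp7: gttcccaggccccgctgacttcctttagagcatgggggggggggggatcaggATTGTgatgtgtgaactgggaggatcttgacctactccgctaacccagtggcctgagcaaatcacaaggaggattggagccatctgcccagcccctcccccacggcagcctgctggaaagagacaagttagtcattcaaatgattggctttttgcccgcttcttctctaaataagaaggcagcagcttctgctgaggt
Sox21: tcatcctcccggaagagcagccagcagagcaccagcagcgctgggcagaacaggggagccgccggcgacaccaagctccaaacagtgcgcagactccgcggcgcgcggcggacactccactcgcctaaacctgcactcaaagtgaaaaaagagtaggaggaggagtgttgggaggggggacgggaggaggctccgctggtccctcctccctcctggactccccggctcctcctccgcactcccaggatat
Nes: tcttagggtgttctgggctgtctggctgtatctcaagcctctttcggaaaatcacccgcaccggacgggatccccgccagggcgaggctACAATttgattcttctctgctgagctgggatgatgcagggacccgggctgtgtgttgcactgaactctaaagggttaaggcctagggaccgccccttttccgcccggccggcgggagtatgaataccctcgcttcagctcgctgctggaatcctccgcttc
Fabp7 and Nes each held 1 match and Sox21 held none. Of the 8 members with such a window, 4 held the core (Fabp7, Nes, Nkx2-2 and Olig2), as did 27.7% of all 32851 windows of this length. A match is a run of letters, not a measured site, and the arrays did not measure binding.

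Fabp7, which encodes the brain fatty-acid-binding protein of neural progenitors and radial glia (also called BLBP), had the largest difference of the 6. Its probe (305043) read 12.7 on the mDom-/- array and 8.82 on the wild-type array, 1.44-fold higher, a log2 ratio of 0.52. Of all compared genes, 5.32% had a higher ratio. Dim probes spread more than bright ones, so each gene was also placed among those of like brightness, in 4 equal bins of the 11926 genes measured on both arrays. In the bin of Fabp7, 2.75% of genes had a higher ratio, and 0.570% were at least 2-fold apart. Counted in either direction, 4.66% of the bin lay at least as far from its median. Fabp7 was singled out as the largest of 6, so these shares are given as a description.

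Nes encodes nestin, the intermediate filament protein by which neural stem cells are commonly recognised. It read 6.44 on the mDom-/- array and 7.005 on the wild-type array (probe 234030), a log2 ratio of -0.12. In its brightness bin 34.6% of genes had a lower ratio, which places Nes inside the bulk of the distribution. Fabp7 and Nes are both markers of neural progenitors, and their log2 ratios stood 0.65 apart. Fabp7 is the highest of the 6, so this gap is given as a description.

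The size of these differences was set against the only repeated measurement within the arrays, pairs of probes of the same gene. Over 1301 genes with exactly 2 probes above the floor on both arrays, the SD of a single log2 ratio was 0.25. That figure covers disagreement between probes of a gene on the same 2 arrays. It leaves out error shared by a gene's probes on an array, and the spread between embryos, litters or pools. Of the 6 members, Fabp7 and Sox21 lay farther from 0 than 0.25, and Sox1, Sox3, Pax3 and Nes lay closer. Of all compared genes 36.3% lay that far from 0 or farther, so 2 of 6 is close to the share on the array as a whole.

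Of the SoxB1 genes, Sox3 and Sox1 were measured on both arrays and Sox2 on neither. Sox3 is an X-linked gene of the early neural plate and its probe (124097) read 16.8 on the mDom-/- array and 18.4 on the wild-type array, a log2 ratio of -0.13. In its brightness bin 32.5% of genes had a lower ratio. Sox1, which marks cells committed to a neural fate, read 1.04 on the mDom-/- array and 0.98 on the wild-type array (probe 226070), a log2 ratio of 0.08. Its probe lay close to the median probe of each array, where a difference as small as this is within the scatter: ratios in its bin, the dimmest of the 4, had a robust SD of 0.35, against 0.22 in the bin that holds Fabp7, Nes, Pax3 and Sox3.

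Sox2, which is needed in pluripotent cells and in the neural tube, was not measured above the floor. Its 1 probe (385088) read 0.48 on the mDom-/- array and 0.39 on the wild-type array, at 88.4% and 72.0% of the floor. On the mDom-/- array 37.8% of probes were dimmer and on the wild-type array 34.7%. These readings give no level for Sox2 and no direction.

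Sox21, the SoxB2 gene, had the lowest ratio. Its probe (32068) read 4.12 on the mDom-/- array and 5.65 on the wild-type array, 1.37-fold lower, a log2 ratio of -0.46. Of all compared genes 7.80% had a lower ratio, and in its brightness bin 8.72%. Counted in either direction, 15.9% of that bin lay at least as far from its median. The log2 ratios of Fabp7 and Sox21 stood 0.98 apart; as the highest and lowest of the 6 they are the widest pair by choice, and the gap is given as a description. In a bulk sample, fewer cells of a type and less RNA per cell cannot be told apart.

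**Figure D2:**
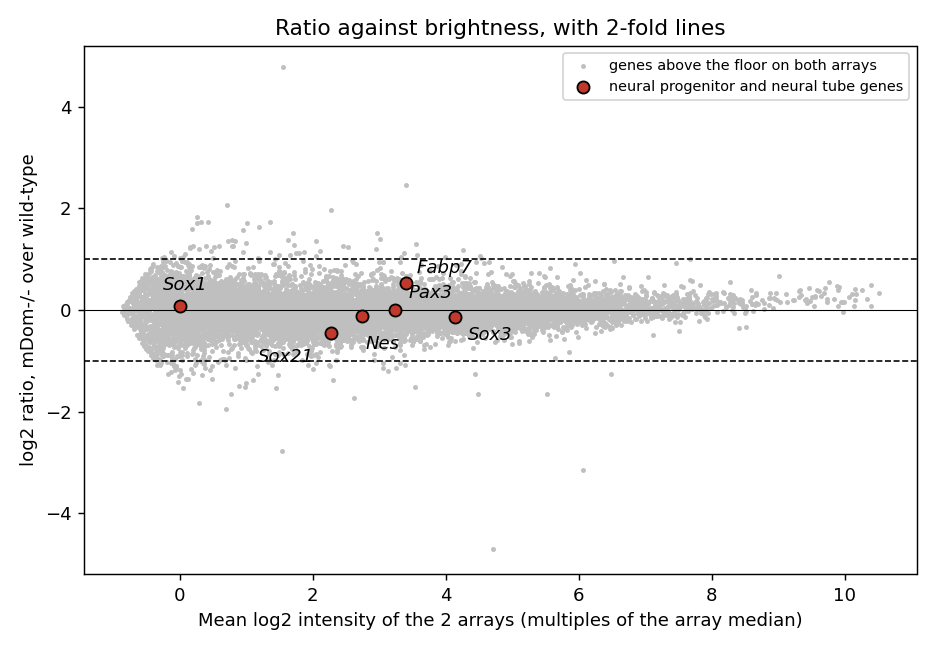
Log2 ratio of mDom-/- over wild-type against the mean log2 intensity of the 2 arrays, for the 11926 genes above the floor on both (grey) and the 6 compared neural genes (red), with dashed lines at 2-fold. All 6 lie between the 2-fold lines, with Fabp7 (0.52) the highest and Sox21 (-0.46) the lowest.

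Of the dorsal genes, Pax3 was measured by 2 probes and Pax7 was not measured. Pax3, whose loss in mice leaves the neural tube open, read 9.46 on the mDom-/- array and 9.51 on the wild-type array with its brighter probe (167094), a log2 ratio of -0.01. Its dimmer probe (72067), annotated to an expressed sequence tag, read 1.71 on the mDom-/- array and 2.01 on the wild-type array, a log2 ratio of -0.24. The log2 ratios of the 2 probes differed from each other by less than the probe-pair SD. Pax7, the close relative that shares the dorsal domain, read 0.25 on the mDom-/- array and 0.35 on the wild-type array (probe 324013), both below the floor.

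The ventral genes were both below the floor. Olig2, which specifies motor neuron and later oligodendrocyte progenitors, read 0.25 on the mDom-/- array and 0.13 on the wild-type array (probe 16018). Nkx2-2, a homeobox gene of the progenitors next to the floor plate, read 0.31 on the mDom-/- array and 0.52 on the wild-type array (probe 27106), its wild-type reading at 96.1% of the floor. For neither gene was the signal above that of dim probes in general: 26.1% of mDom-/- and 17.5% of wild-type probes were dimmer than Olig2, and 29.9% of mDom-/- and 39.6% of wild-type probes were dimmer than Nkx2-2. A difference in the ventral domains was therefore not detectable with these probes.

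The ratios of the 6 compared genes changed little with the way the arrays were scaled. Over 9 settings Fabp7 stayed between 0.52 and 0.55, Sox21 between -0.46 and -0.42, Sox3 between -0.14 and -0.11 and Nes between -0.12 and -0.09. Sox1 stayed between 0.08 and 0.11 in 8 of them and was not compared with the 60th percentile floor, which lay above both its readings. Pax3 was on either side of 0, from -0.12 with the mean of its 2 probes to 0.02 with loess. Sox2, Pax7, Olig2 and Nkx2-2 entered with a lower floor or none. Without a floor their log2 ratios were 0.30, -0.45, 0.93 and -0.72, on signals no brighter than 0.52; with the floor at the 25th percentile Olig2 had 0.09, a bound, since its wild-type signal lay below even that floor.

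**Figure D3:**
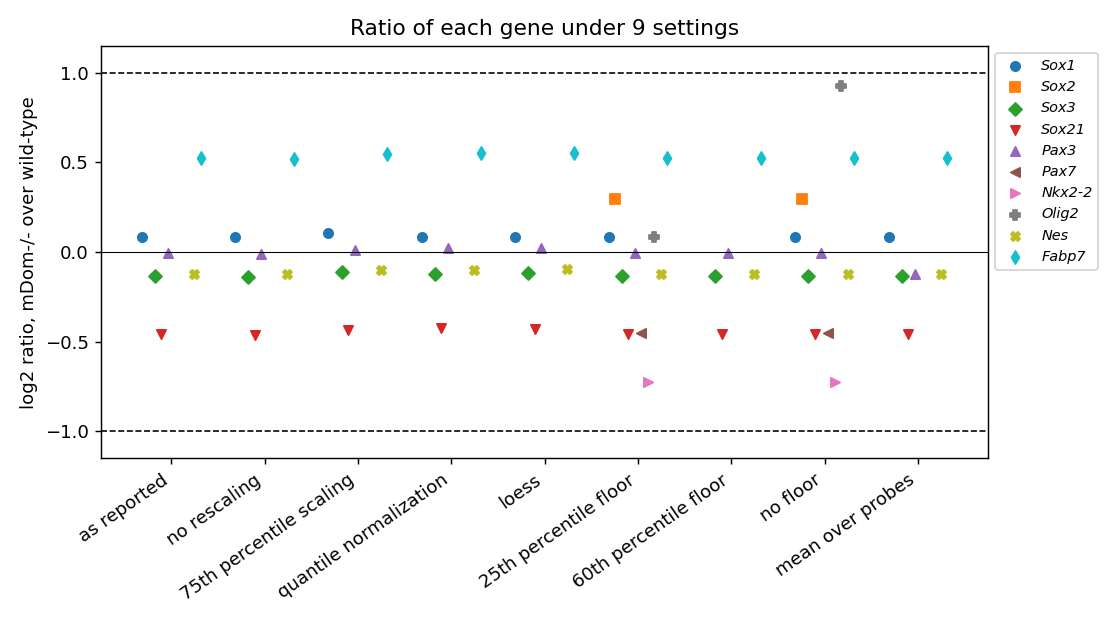
Log2 ratio of mDom-/- over wild-type for each of the 10 genes under the reported setting and 8 alternatives, with dashed lines at 2-fold. No gene reaches 2-fold under any of the 9; the 4 dim genes have a value only with the 25th percentile floor or with no floor.

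Other genes of neural progenitors and of the dorsoventral domains were read from lists that leave out the 10 members. These lists were chosen with earlier results of these data known. A wider neuroepithelial list had 28 of 30 genes compared, with a median log2 ratio of -0.18. Its summed intensity was 1100.4 on the mDom-/- array and 1070.8 on the wild-type array. Of all compared genes 50.6% were below 0, 0.845% were 2-fold higher and 0.929% lower. On this list 9 were above 0 and 19 below, none was 2-fold higher and 3 were 2-fold lower. These were the Notch effector Hes5 (1.10 on the mDom-/- array and 3.12 on the wild-type array, log2 ratio -1.50) and the POU factor genes Pou3f2 (1.53 on the mDom-/- array, 3.28 on the wild-type array, -1.10) and Pou3f3 (1.46 on the mDom-/- array, 3.49 on the wild-type array, -1.26). With the 60th percentile floor of 1.76 their mDom-/- readings lay below the floor, and the ratios became bounds of -0.82, -0.89 and -0.98, short of the 2-fold rule. A second probe of Pou3f2 had a log2 ratio of 0.14. A second probe of Pou3f3 was below the floor on both arrays, at 0.37 on the mDom-/- array and 0.14 on the wild-type array. The brightest genes of the list had log2 ratios of 0.26 for the growth factor gene Mdk, 0.36 for the RNA-binding protein gene Lin28a and -0.18 for the retinoic acid carrier gene Crabp2.

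Genes listed by position in the tube were also read from whole embryos, so their signal need not come from the tube. Over all compared genes 50.6% were below 0, 0.845% were 2-fold higher and 0.929% 2-fold lower. The 12 dorsal genes had a median of 0.21, with 8 above 0. Wnt3a, Msx2 and Msx1, known from the roof plate and dorsal midline, had 0.30, 0.26 and 0.17. Only Zic1 was 2-fold apart, at 3.39 on the mDom-/- array and 11.3 on the wild-type array (-1.74). Of 8 intermediate genes, 4 were on each side of 0 with a median of -0.11. The homeobox gene Dbx1 (1.18 on the mDom-/- array and 3.35 on the wild-type array, -1.51, a bound of -0.92 with the 60th percentile floor) and Nkx6-2 (-1.03, below that floor on both arrays) were 2-fold lower, while Pax6, Irx3 and Irx5 had -0.38, 0.07 and 0.19. Of 10 ventral genes, 6 were below 0 and the median was -0.15. Nkx6-2, also on this list, was the 1 gene 2-fold apart, and Nkx6-1, Spon1 and the Shh receptor gene Ptch1 had -0.21, -0.50 and 0.02. Like Olig2 and Nkx2-2, Shh and Olig1 were below the floor on both arrays.

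**Figure D4:**
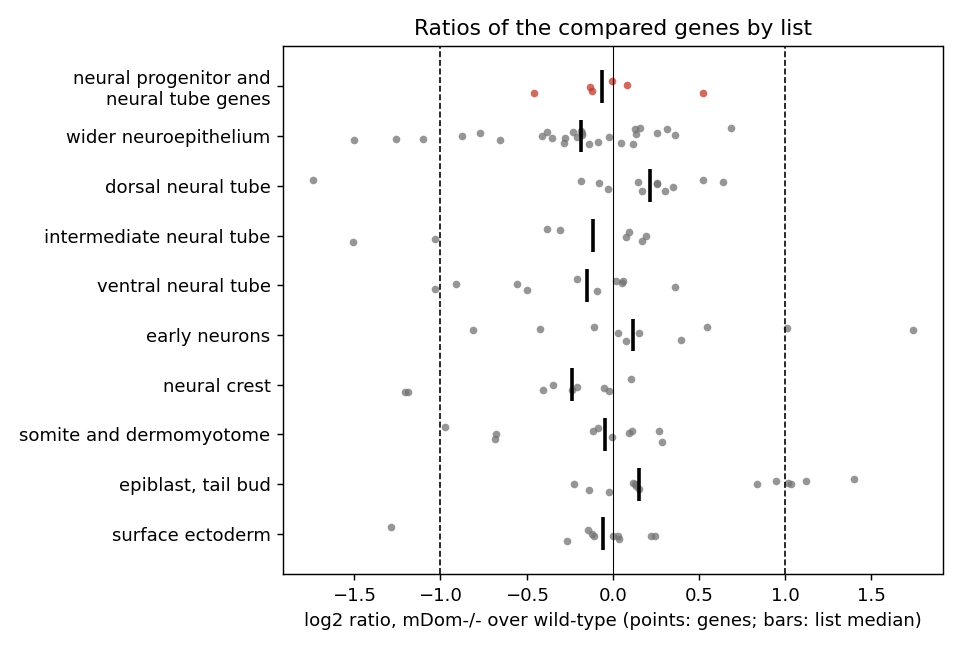
Log2 ratio of mDom-/- over wild-type for the compared genes of the neural, neural crest, somite, epiblast and surface ectoderm lists (points) with the list median (bars) and dashed lines at 2-fold. The 6 neural progenitor and neural tube genes, in the top row, span -0.46 to 0.52. The other lists drawn hold more genes, from 8 to 28 compared. All but somite and dermomyotome hold at least 1 gene past 2-fold. Over all compared genes 1.77% were at least 2-fold apart. With the 60th percentile floor the wider neuroepithelium, intermediate, ventral and surface ectoderm lists hold none.

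Markers of the other cells in which the members can be expressed are given beside these values. Their lists too were chosen with earlier results known. The same shares of all compared genes apply: 50.6% below 0, 0.845% 2-fold higher and 0.929% 2-fold lower. Early neuronal genes had a median of 0.12 over 10 compared, with the summed intensity at 33.5 on the mDom-/- array and 26.8 on the wild-type array. The tubulin gene Tubb3 (1.01) and the filament gene Prph (1.74, a bound of 1.41 with the 60th percentile floor) were 2-fold higher. A second probe of Tubb3 was below the floor on both arrays (0.52 on the mDom-/- array and 0.22 on the wild-type array). Isl1, Stmn2 and Nefm had 0.08, 0.15 and 0.55. Neural crest genes had a median of -0.24 over 9, 8 of them below 0, and a summed intensity of 65.8 on the mDom-/- array and 81.1 on the wild-type array. Sox10 (-1.20) and Tfap2a (-1.19, below the 60th percentile floor on both arrays) were 2-fold lower, and Foxd3, Twist1 and Erbb3 had -0.21, -0.02 and -0.35. Somite and dermomyotome genes, which share Pax3 and Pax7 with the dorsal tube, had a median of -0.05 over 10 and none 2-fold apart. Foxc2, Meox1 and Tcf15 had 0.09, -0.09 and 0.11. Their list summed to 102.3 on the mDom-/- array and 100.9 on the wild-type array, higher although the median was below 0. A sum follows the brightest genes of a list and need not go with its median.

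Epiblast and tail bud genes, among which Sox2 is also active, had a median of 0.15 over 13, 10 of them above 0, and a summed intensity of 194.1 on the mDom-/- array and 134.9 on the wild-type array. Wnt8a (13.1 on the mDom-/- array and 4.96 on the wild-type array, 1.40) and Nanog (1.12) were 2-fold higher. So were Utf1 (1.03, a bound of 0.20 with the 60th percentile floor) and Dppa5a (1.02, below that floor on both arrays). Over all compared genes the share 2-fold higher was 0.845%. Pou5f1, Cdx1 and Sall4 had 0.95, 0.84 and 0.14. Surface ectoderm genes had a median of -0.05 over 10. They summed to 98.0 on the mDom-/- array and 104.1 on the wild-type array. Epcam, Cdh1 and Six4 had -0.15, 0.22 and -0.26. Trp63 was at least 2.44-fold lower with 1 probe, while its second probe had 0.23. The part of these cell populations in the values of the 10 members was not tested. No list was tested against another, and the members' own median of -0.06 lies within the range of the list medians.

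The dissected tissue was checked with genes of the embryo proper. Of 9 such genes 8 were compared, among them the heart genes Tnnt2 and Myl7, the somite gene Meox1 and the gut peptide gene Pyy, with log2 ratios of -0.06, 0.08, -0.09 and 1.07; Sox2 was the ninth. Genes listed for yolk sac and placenta were also read, and their signal need not come from those tissues. Of 8 yolk sac and placental genes with a probe 7 were compared, with a median of -0.33 and 5 below 0, beside 50.6% of all compared genes. Their summed intensity went the other way, at 477.9 on the mDom-/- array and 419.3 on the wild-type array. The brightest were Ttr (251.1 on the mDom-/- array and 166.5 on the wild-type array, 0.59), Apoa1 (-0.13) and Afp (-0.33). Whether either pool held yolk sac tissue, or the pools differed in it, was not tested. Of the placental genes, Tpbpa was below the floor on both arrays and Elf5 on the mDom-/- array. The mutated gene itself could not be followed, since the 2 probes of Ep400 read -0.03 and 0.07 on the mDom-/- array and 0.21 and 0.47 on the wild-type array, all below the floor; the labels do not say whether they lie in the mutated part.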

How the data were processed

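The deposited table holds 36227 probes with 1 intensity per array. Per the labels, RNA was labelled with biotin-UTP under the CodeLink Expression Bioarray protocol and images were analysed with the CodeLink System Software; the labels state no version, background correction, scaling or detection flag. That the deposited intensities are linear and already scaled was read from the values, whose medians are 1.05 on both arrays. The code -9999 was read as missing (106 mDom-/- and 105 wild-type probes).

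Genes were named from the platform annotation, with symbols updated by Entrez identifier in RefSeq's GRCm38.p6 table for 21487 of 21615 probes with 1 symbol; 681 probes with several symbols and 13931 with none listed were not named. The labels name no genome build for the probes. Each array was divided by its median, raised to a common floor (the higher of the 40th percentiles) and put on the log2 scale. A gene took its brightest compared probe. With 1 of the arrays at the floor, a ratio is a bound.

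The members and all 14 lists were chosen with earlier results of these data known. Named from each list were the genes at least 2-fold apart and the 3 brightest others. Alternatives were 4 scalings, 3 floors, the mean over probes and rules of 1.5-fold and 3-fold. The computation was tested on simulated data with 200 changed genes. Python 3.11.15, pandas 2.3.3, numpy 2.4.6 and statsmodels 0.14.6 were used. The precision is limited by the number of arrays, 1 per group.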

Additional observations from a re-analysis of the deposited data

How the results depend on the processing

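Without replicates, a ratio was counted as moved when it shifted by more than the probe-pair SD of 0.25, and a count when it changed by over 1.5 times. The median of the members stayed between -0.12 and -0.03 over 9 settings. The number of member probes 2-fold apart stayed at 0 under every floor, scaling and size rule. The 60th percentile floor and the 3-fold rule could not have raised that number. The background did move. With the 25th percentile floor 533 genes were at least 2-fold higher and 522 lower, with the 60th percentile floor 38 higher and 28 lower, and with no floor 1200 higher and 1130 lower, against 111 and 122 as reported; lower floors admit dimmer probes, whose ratios spread more. At 1.5-fold the counts were 536 higher and 572 lower, and at 3-fold 22 higher and 23 lower. Of 16 genes named as 2-fold apart from the lists, 7 stayed so with the 60th percentile floor, 5 became bounds short of 2-fold, with 1 array raised to the floor, and 4 were not compared. No paired analysis was possible because each group had 1 array. Signal over background limits Sox2, Pax7, Olig2 and Nkx2-2, which have 1 probe each.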

Other observations

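Relatives of the members were read in the same way. Some of them, such as Pax6, Vim and Prph, also stand on the lists above, with the same values. Of all compared genes 50.6% were below 0 and 1.77% were at least 2-fold apart. Sox4, Sox9 and Sox11 stand only on the neuroepithelial list, and Sox8 and Sox10 only on that of neural crest. Of these, Sox10 was 2-fold lower (-1.20). Sox11 had -0.09, Sox9 and Sox4 had bounds of -0.41 and -0.23, and Sox8 was below the floor on both arrays. The Sox list leaves these out. It held 11 other Sox genes, of which 10 were compared, with a median log2 ratio of -0.13, 4 above 0 and none 2-fold apart. Its brightest genes went both ways: Sox12, a SoxC gene, read 10.4 on the mDom-/- array and 6.99 on the wild-type array (0.58), Sox17, an endoderm and endothelial gene, had 0.52, and Sox7 had -0.45. Sox14, the SoxB2 relative of Sox21 and named after its value was seen, read 2.003 on the mDom-/- array and 2.30 on the wild-type array (-0.20). Of 7 other Pax genes, 5 had a ratio and their median was -0.12. Pax1, Pax4 and Pax6 had -0.12, 0.19 and -0.38.

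Among relatives of Nes and Fabp7, 9 of 10 were compared, with 7 above 0 and a median of 0.17. Of all compared genes 50.6% were below 0 and 1.77% were at least 2-fold apart. Vim, the filament protein gene whose product assembles with nestin, read 52.9 on the mDom-/- array and 64.4 on the wild-type array, a log2 ratio of -0.28 beside the -0.12 of Nes. Fabp5, the epidermal fatty-acid-binding protein gene that is also active in neural progenitors, read 300.7 on the mDom-/- array and 385.5 on the wild-type array (-0.36), while Fabp7 had 0.52 and the heart-type Fabp3 had 0.09. Prph, on this list and that of early neurons, was the 1 gene 2-fold apart. No explanation of these values was tested.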
